A study of Mus musculus with 6 samples.

Results

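Midbrain dopaminergic (mdDA) neurons are divided into subsets by the genes they express. Described here, in the E14.5 mouse midbrain with and without Lmx1b, are 8 genes called markers. They include marks of such subsets and genes of calcium-binding proteins of midbrain neurons. The markers are the neuropeptide gene Cck, the genes of the calcium-binding proteins Calb1 (calbindin), Calb2 (calretinin) and Pvalb (parvalbumin), the vesicular glutamate transporter gene Slc17a6 (Vglut2), the transcription factor gene Sox6, the tetraspanin gene Cd9 and the receptor guanylyl cyclase gene Gucy2c. They are 8 of the 26852 genes in the deposited table, and all 8 had a mean normalized count of at least 10 over the 6 libraries. The genes were chosen from earlier results of the same comparison, in which the mean of the cKO libraries was set against the mean of the control libraries, so their values are a description and no test is given for them.

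Lmx1b is a LIM-homeodomain transcription factor that acts in the induction and later in the maintenance of mdDA neurons. These neurons form the substantia nigra pars compacta (SNc), in which Sox6 and Aldh1a1 are known marks of a rostrolateral and ventral subset, and the ventral tegmental area (VTA), in which Cck, Calb1, Otx2 and Slc17a6 mark more medial and caudal subsets. Many other neurons of the midbrain express Slc17a6, Calb1, Calb2 and Cck as well, and parvalbumin is best known from fast-firing inhibitory neurons and from proprioceptive sensory neurons.

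RNA was taken from dissected midbrains of C57Bl/6 embryos at E14.5 (the embryonic stage). The Lmx1b cKO group was Lmx1b-fl/fl; Pitx3-Cre and the control group was Lmx1b-wt/wt; Pitx3-Cre, with 3 libraries in each group and pooled embryos in each library. Cre was driven from the Pitx3 locus, so recombination in the midbrain was directed to Pitx3-expressing mdDA neurons, and embryos of both groups carried the Cre in place of a Pitx3 copy. The dissected tissue held all other midbrain cells too, and in such bulk RNA fewer cells of a type cannot be told apart from less RNA per cell. The table gives group means, and the whole read counts behind them were recovered for each library. These counts are known by genotype and not by sample, and the libraries of a group are called a, b and c, with a the deepest.

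The reads recovered on genes numbered 24053984 in the shallowest library and 29162281 in the deepest. Levels are given as normalized counts, the read count of a library divided by its size factor. The group means of Lmx1b itself lay within the spread of the libraries (1371 ± 102 normalized counts in the cKO against 1398 ± 66.6, SD, n = 3), so that its total does not check the labels. The mdDA genes Th, Ddc, Slc6a3 and Pitx3 were present in all libraries. Markers of other tissue stood apart in some libraries. Summed over 9 mesenchyme genes, the normalized counts were 14408 in cKO c and 2458 in cKO a, against 797 to 918 in cKO b and the control libraries, with cKO b at 832. Atoh1, a gene of the rhombic lip of the hindbrain, had 74.3 normalized counts in control a, 2.16 in control c and 0 in the other 4 libraries. Over the 16952 genes tested with limma, 470 genes had an unadjusted p under 0.05, a share of 2.77%, with 272 genes lower in the cKO (1.60%) and 198 higher (1.17%). No gene had an adjusted p under 0.05. A gene that was no marker is said to have passed where its unadjusted limma p was under 0.05, and the adjusted p was 1.00 for each gene named.

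The 8 markers spread over a wide range of levels. Per kilobase of exon, the level over the 6 libraries was highest for Slc17a6 with 1089 ± 80.5 normalized counts per kb (SD, n = 6), followed by Calb2 with 686 ± 61.2 per kb and Cd9 with 218 ± 30.0 per kb. Calb1 had 140 ± 17.1 per kb, Cck 118 ± 17.9 per kb and Sox6 74.0 ± 3.97 per kb. Pvalb, with 39.1 ± 21.8 per kb, and Gucy2c, with 21.5 ± 9.47 per kb, were the lowest. In this order the ranges of neighbouring genes overlapped between Calb1 and Cck and between Pvalb and Gucy2c, and did not overlap between the other neighbours. The overlap at the lower end came from the cKO libraries of Pvalb, which had 19.4 ± 4.46 per kb against 58.8 ± 2.83 per kb in the control.

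**Figure D1:**
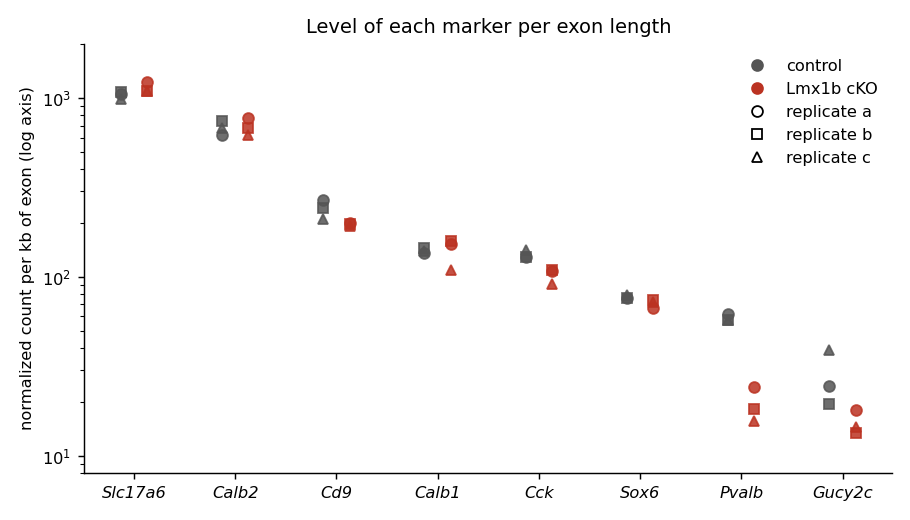
Level of the 8 markers, as normalized count per kb of exon on a log axis, with each library as a point (grey for control, red for cKO, and a symbol for each replicate). Slc17a6 is highest at a mean of 1089 per kb and Gucy2c lowest at 21.5 per kb, and the red points of Pvalb lie apart below its grey points.

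Of the 8 markers, 5 had all cKO libraries below all control libraries (Cck, Pvalb, Sox6, Cd9 and Gucy2c), and Slc17a6 had all cKO libraries above all control libraries. Among the 16952 genes tested, 3.73% lay below and 3.88% above in this way. The markers were chosen on this comparison, so nothing is read from the count. Calb1 and Calb2 overlapped between the groups. On the log2 scale the values ranged from -1.59 for Pvalb to 0.13 for Slc17a6, and the median of all tested genes was 0.00.

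**Figure D2:**
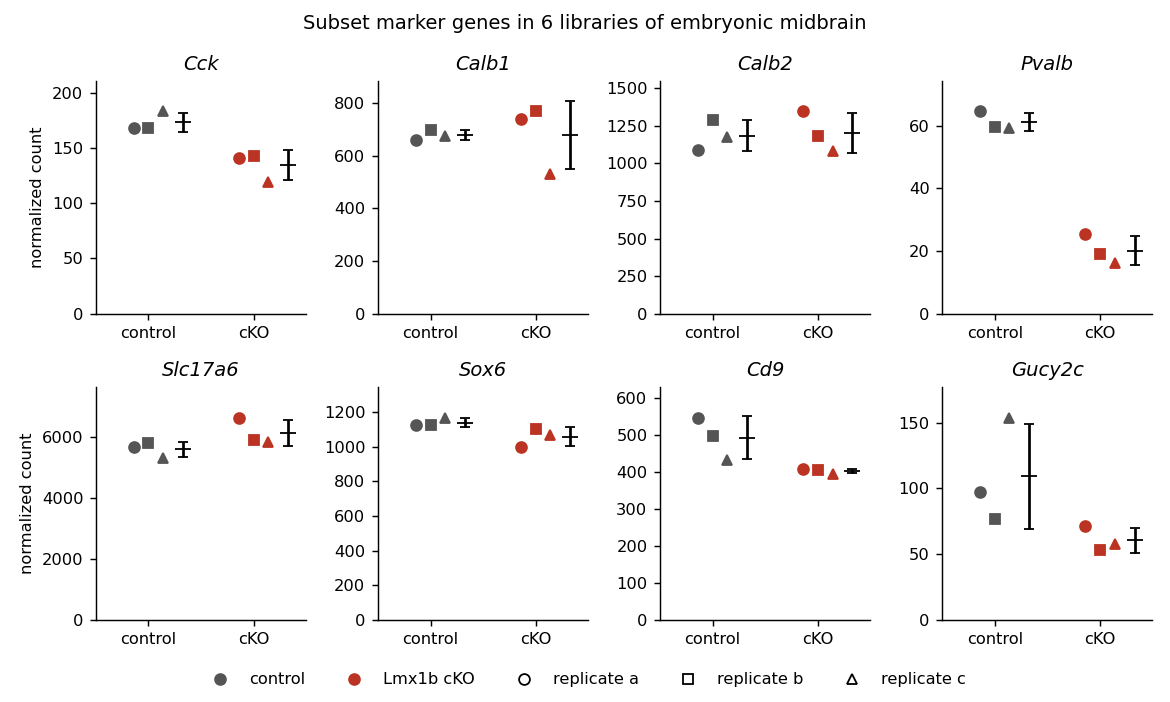
Normalized counts of the 8 markers in the 3 control libraries (grey) and the 3 Lmx1b cKO libraries (red), with the mean and SD of each group as a black bar, on axes that start at 0. The groups lie farthest apart for Pvalb (25.3 at most in the cKO, 59.4 at least in the control) and overlap for Calb1 and Calb2.

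Pvalb showed the largest difference of the 8 markers. Pvalb (ENSMUSG00000005716, chromosome 15 of GRCm38, 78191114 to 78206400, minus strand) encodes parvalbumin, an EF-hand protein that buffers calcium in fast-firing neurons. Its normalized counts were 25.3, 19.0 and 16.2 in cKO a, b and c and 64.6, 59.6 and 59.4 in control a, b and c. The highest cKO library was thus at 0.426 of the lowest control library, and the control libraries lay close together. The means were 20.2 ± 4.64 and 61.2 ± 2.95 (SD, n = 3), a 3.03-fold lower level in the cKO, and the log2 fold change was -1.59 (standard error 0.32, 95% interval -2.30 to -0.88). The interval makes no allowance for the choice of the gene on this comparison, so it is not a test. Of the 16952 genes tested, 26 had a lower log2 fold change. Few reads stand behind this gene, namely 27, 18 and 15 in the cKO and 73, 62 and 55 in the control. From the sums of 60 and 190 reads, the ratio of cKO to control was 0.333 with an exact 95% interval of 0.245 to 0.447, which covers counting error only. With any single library left out, the log2 fold change of Pvalb ranged from -1.77 to -1.45.

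Genes next to Pvalb on chromosome 15 had log2 fold changes nearer to 0. Ift27, which lies 17.0 kb away, had a log2 fold change of -0.10, and Cacng2, which lies 71.1 kb away, had 0.01. The 11 tested genes within 300 kb ranged from -0.55 (Gm17638) to 0.10 (Foxred2), and none of them passed in limma. The exons of Pvalb overlapped no other annotated gene, and no 50-base word of its transcripts was found in the transcript of another gene.

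Promoter entries from RefSeq (GRCm38.p6) were matched for 5 of the 8 markers (Cck, Pvalb, Slc17a6, Sox6 and Cd9), in the table used here. The 250 bases before the start are shown for Pvalb, the marker with the largest difference, at its upstream start, and for Cck, a VTA mark. Capitals mark TAAT, the core bound by many homeodomain proteins, searched on both strands (TAAT or ATTA, where overlapping matches run together), in sequences written 5′ to 3′ on the minus strand.
Pvalb, chr15:78206401-78206650: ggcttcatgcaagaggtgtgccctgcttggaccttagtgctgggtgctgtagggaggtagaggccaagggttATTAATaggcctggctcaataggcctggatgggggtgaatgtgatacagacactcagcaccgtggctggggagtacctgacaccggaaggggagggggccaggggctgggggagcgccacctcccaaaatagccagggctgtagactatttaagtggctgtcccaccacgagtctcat
Cck, chr9:121495695-121495944: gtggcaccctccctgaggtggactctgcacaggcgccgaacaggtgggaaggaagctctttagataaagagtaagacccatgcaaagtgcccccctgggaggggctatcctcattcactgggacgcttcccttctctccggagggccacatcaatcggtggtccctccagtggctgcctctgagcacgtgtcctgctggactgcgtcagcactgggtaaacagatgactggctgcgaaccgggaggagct

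The Pvalb window holds 2 overlapping TAAT cores on opposite strands, and the Cck window holds 0. The window before the other Pvalb start in the table, chr15:78204238-78204487, which is not printed, holds 0 too. The core is common, since 54.9% of 32851 RefSeq promoter windows of this length hold it. The longer TAATTA, which contains the core on both strands, is in 4.84% of these windows and in neither of the sequences shown. Of the other markers' windows, not printed, 1 of the 2 for Slc17a6 holds 1 TAATTA and 4 TAAT cores and the other holds 1 core, the 6 for Sox6 hold from 0 to 5 cores, and that for Cd9 holds 1. These matches are a description of letters in a window.

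Gucy2c was the second of the markers with a large difference. Gucy2c (ENSMUSG00000042638, chromosome 6, 136697284 to 136781765, minus strand) encodes guanylyl cyclase C, the receptor for guanylin and uroguanylin, which makes cyclic GMP in the gut and is known from mdDA neurons too. Its normalized counts were 71.2, 52.8 and 57.4 in cKO a, b and c and 97.3, 76.8 and 154 in control a, b and c. The groups did not overlap, but the highest cKO library was at 0.927 of the lowest control library, and control c lay far above the other controls. The means were 60.5 ± 9.57 and 110 ± 40.2 (SD, n = 3), and the log2 fold change was -0.77 (standard error 0.30). Without control c the value was -0.52, and without control b it was -0.98. Behind these values stand 179 reads in the cKO and 333 in the control.

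The partners of Gucy2c did not give a common direction. Its ligands Guca2a and Guca2b were at or near 0, with at most 1.08 normalized counts in any library. Of 16 genes of guanylyl cyclases and cyclic GMP signalling, 12 were tested, 1 was lower at p under 0.05 and none higher, with a median log2 fold change of -0.08. The lower gene was Cftr, the chloride channel that cyclic GMP opens in the gut, with 45.0, 41.2 and 39.0 normalized counts in the cKO against 90.2, 60.5 and 56.2 in the control (log2 fold change -0.70, standard error 0.29), and it passed in 2 of the 6 fits with a library left out. Gucy1b1, the beta subunit of the soluble guanylyl cyclase and the most abundant gene of the list, had 1645 ± 128 normalized counts in the cKO against 1634 ± 51.4 in the control.

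Cck was lower in the cKO by a small margin. Cck (ENSMUSG00000032532, chromosome 9, 121489824 to 121495694, minus strand) encodes cholecystokinin, the peptide that marks the caudomedial mdDA subset fated for the VTA. Its normalized counts were 141, 143 and 119 in cKO a, b and c and 168, 168 and 183 in control a, b and c. The highest cKO library was at 0.849 of the lowest control library. The means of 134 ± 13.3 and 173 ± 8.33 (SD, n = 3) gave a log2 fold change of -0.36 (standard error 0.16, 95% interval -0.71 to -0.00). With a library left out, the log2 fold change of Cck ranged from -0.40 to -0.28. The sums of 396 and 534 reads gave a ratio of 0.782 with an exact 95% interval of 0.685 to 0.892 for counting error only.

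The receptor genes and the processing enzymes of the peptide were measured beside it. Of 13 genes for Cck receptors, the related peptide gastrin and the making of secreted peptides, 11 were tested and none had a p under 0.05 (median log2 fold change -0.02). Cckar had 33.9 ± 9.99 normalized counts in the cKO against 36.1 ± 17.0 in the control, and Cckbr had 73.0 ± 13.9 and 77.2 ± 16.3. Chgb, a granin of the secretory granule and the most abundant gene of this list with a value per library, had 4569 ± 318 and 4557 ± 91.7.

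Among the calcium-binding proteins, calbindin and calretinin did not differ between the groups in the way of parvalbumin. Calb1 (ENSMUSG00000028222, chromosome 4, 15881264 to 15908064, plus strand), which marks VTA neurons and the dorsal tier of the SNc, had 739, 769 and 531 normalized counts in cKO a, b and c and 660, 699 and 677 in control a, b and c. Replicates a and b of the cKO were above all controls and cKO c was below them, and cKO c was also the library with the highest mesenchyme sum (14408 normalized counts), whose part in the low value was not tested. The log2 fold change was -0.01 with a 95% interval of -0.28 to 0.27, and without cKO c it was 0.15. Calb2 (ENSMUSG00000003657, chromosome 8, 110137502 to 110168210, minus strand) had 1347, 1180 and 1085 normalized counts in the cKO against 1087, 1292 and 1179 in the control. For Calb2 the log2 fold change was 0.03 with an interval of -0.18 to 0.23, and it changed sign in some fits with a library left out, from -0.06 to 0.10. Of 27 other EF-hand genes, 21 were tested and none had a p under 0.05, with a median log2 fold change of -0.01. Calm2, a calmodulin gene and the most abundant of them with a value per library, had 15675 ± 958 normalized counts in the cKO against 15676 ± 394 in the control.

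**Figure D3:**
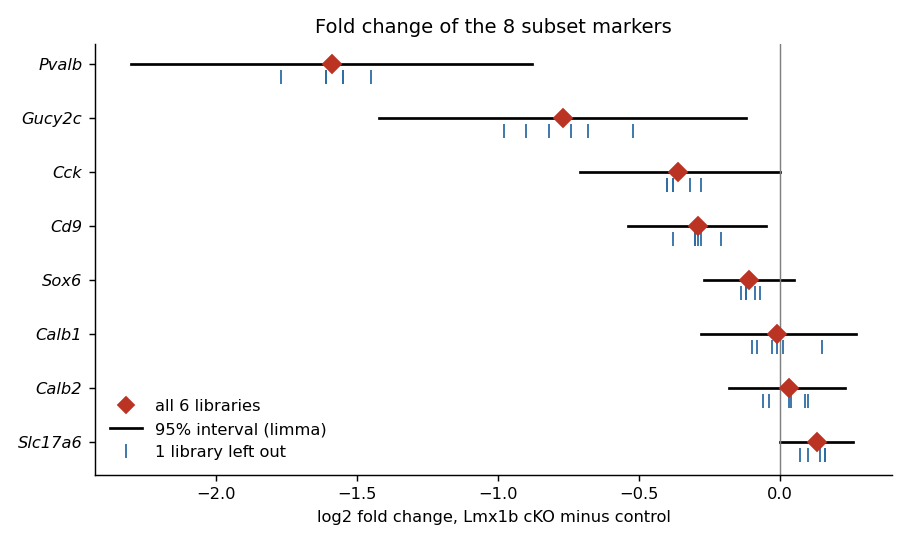
Log2 fold change of the 8 markers (Lmx1b cKO minus control, diamonds) with the 95% interval of limma (black lines) and the values with each of 6 libraries left out (blue ticks). Pvalb is at -1.59 and all its ticks lie between -1.77 and -1.45, while the ticks of Calb1 and Calb2 lie on both sides of 0. The intervals make no allowance for the choice of the markers on this comparison and are not tests.

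Slc17a6 was the most abundant marker and the only marker of the 8 that was higher in all cKO libraries. Slc17a6 (ENSMUSG00000030500, chromosome 7, 51622006 to 51671119, plus strand) encodes the transporter that loads glutamate into synaptic vesicles, and most glutamatergic neurons of the midbrain use it. Its normalized counts were 6656, 5925 and 5866 in cKO a, b and c and 5690, 5813 and 5333 in control a, b and c. The lowest cKO library was 1.01 times the highest control library. The means of 6149 ± 440 and 5612 ± 249 (SD, n = 3) gave a log2 fold change of 0.13 (standard error 0.059), which was 0.07 without cKO a.

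Other vesicular transporter genes and genes of midbrain glutamatergic neurons were counted beside it. Of 8 other vesicular transporter genes, 6 were tested and none was called (median log2 fold change 0.07). Slc17a7 had 13.7 ± 2.50 normalized counts in the cKO against 12.7 ± 6.10 in the control, and Slc17a8 had 381 ± 182 and 454 ± 161. Slc32a1, which loads GABA and glycine and was the most abundant of these transporters, had 2395 ± 287 and 2438 ± 206. Of 10 genes of midbrain glutamatergic neurons, all were tested and none was called (median -0.06), and Ebf3, the most abundant, had 12945 ± 579 and 13650 ± 1448.

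Sox6 was slightly lower in the cKO. Sox6 (ENSMUSG00000051910, chromosome 7, 115470872 to 116038796, minus strand) encodes a SoxD transcription factor that marks SNc-fated progenitors and neurons. Its normalized counts were 997, 1104 and 1068 in cKO a, b and c and 1125, 1123 and 1168 in control a, b and c. The highest cKO library was at 0.983 of the lowest control library, so the groups were separated by less than their own spread. The means were 1056 ± 54.6 and 1138 ± 25.3 (SD, n = 3), with a log2 fold change of -0.11, a standard error of 0.071 and a 95% interval of -0.27 to 0.05, and without cKO a the value was -0.07. The 2 SoxD relatives Sox5, with 1238 ± 31.5 and 1203 ± 15.6 normalized counts, and Sox13, with 768 ± 111 and 756 ± 55.4, had log2 fold changes of 0.04 and 0.01, and neither had a p under 0.05 (median 0.03).

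Cd9 was lower in the cKO and varied mainly among the controls. Cd9 (ENSMUSG00000030342, chromosome 6, 125460266 to 125494791, minus strand) encodes a tetraspanin of the cell surface. Its normalized counts were 406, 405 and 394 in cKO a, b and c and 546, 497 and 432 in control a, b and c. The cKO libraries lay within a narrow range, and the highest was at 0.939 of the lowest control. The means of 401 ± 6.49 and 492 ± 57.1 (SD, n = 3) gave a log2 fold change of -0.29 (standard error 0.11), which was -0.21 without control a. Cd9 was the only marker whose exons overlapped another annotated gene, the processed transcript Gm26728 on the opposite strand, over 218 bases, and the use of strand in counting is not given in the sources used here. Of 25 other tetraspanins and their partner proteins, 22 were tested and none was called, with a median log2 fold change of -0.02. Tspan3, the most abundant with a value per library, had 6571 ± 188 and 6696 ± 416 normalized counts.

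Other marks of the mdDA subsets were set beside the 8 markers. Of 13 marks of the rostrolateral (SNc) subset, 12 were tested, 1 was higher at p under 0.05 and none lower, with a median log2 fold change of -0.04. The higher gene was Aldh1a1, which encodes a retinal dehydrogenase, with 981, 672 and 816 normalized counts in cKO a, b and c and 337, 554 and 439 in control a, b and c (log2 fold change 0.92, standard error 0.18), and it passed with any library left out. Vcan, the most abundant gene of this list, had 6577 ± 575 and 6337 ± 488. Of 10 marks of the caudomedial (VTA) subset, 9 were tested and 1 was lower, the neuropeptide gene Vip, with a median log2 fold change of 0.03. Vip had 11.2, 12.7 and 14.1 normalized counts in the cKO against 28.3, 25.9 and 19.4 in the control (log2 fold change -0.94, standard error 0.41) and passed in 1 of the 6 fits with a library left out. Otx2, a homeodomain gene of the VTA, had 1801 ± 63.4 and 1715 ± 97.9 (log2 fold change 0.07). The ratio of Aldh1a1 to Cck was 6.93, 4.71 and 6.85 in cKO a, b and c and 2.01, 3.30 and 2.40 in control a, b and c, which follows from the values of both genes and is no further evidence. These subset lists, like the markers, were chosen with earlier results known.

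**Figure D4:**
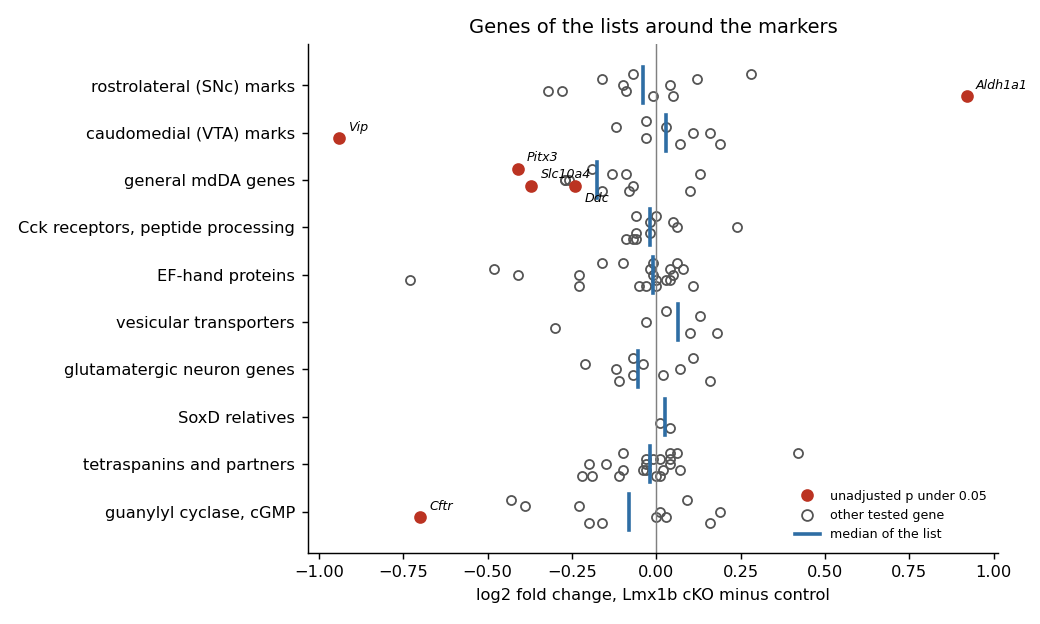
Log2 fold change (Lmx1b cKO minus control) of the tested genes on 10 lists around the markers, with a red point for an unadjusted limma p under 0.05, open points for the other genes and a blue line for the median of the list. Named red points are Aldh1a1 on the higher side and Vip, Pitx3, Slc10a4, Ddc and Cftr on the lower side.

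Of 14 genes that mark mdDA neurons in general, all were tested, 3 were lower at p under 0.05 and none higher. Their median was -0.17 on the log2 scale, and 12 of the 14 genes had a value below 0, as did 8419 of all 16952 genes tested. Those lower were Slc10a4, a transporter-like protein of monoaminergic vesicles (-0.37, standard error 0.10), Ddc, which makes dopamine from L-DOPA (-0.24, standard error 0.10), and Pitx3 (-0.41, standard error 0.18). Slc10a4 passed with any library left out, whereas Ddc and Pitx3 passed in 2 of the 6 fits each, and Ddc was at -0.11 without control c and Pitx3 at -0.24 without cKO a. Summed over the 14 genes, control c stood apart with 19952 normalized counts, while control a and b (16822 and 16873) lay within the range of the cKO libraries (16013 to 17562). Dlk1, the most abundant of the list, had 4850 ± 771 and 4547 ± 907 normalized counts. Th, the rate-limiting enzyme of dopamine synthesis, had 752 ± 23.3 and 847 ± 112 (log2 fold change -0.16, and -0.06 without control c), and did not pass.

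Relative to Th, Pvalb was still the marker with the largest difference. Per 100 normalized counts of Th, Pvalb had 3.40, 2.59 and 2.09 in cKO a, b and c and 8.32, 7.54 and 6.08 in control a, b and c, and Gucy2c had 9.56, 7.20 and 7.37 against 12.5, 9.73 and 15.8. Both kept groups that did not overlap, as did Slc17a6, which was higher in the cKO with 818 ± 70.5 against 672 ± 109. On this scale Cck had 17.9 ± 2.28 in the cKO against 20.5 ± 1.62, and the groups overlapped for Cck, Cd9 and Sox6, as they did for Calb1 and Calb2. Other cells of the midbrain express these markers too, so the ratio to Th is an arithmetic value and not a level per mdDA neuron.

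Markers of other cells differed between the groups beside the subset markers. Of 5 genes of serotonergic neurons, all were tested and 3 were lower in the cKO, with a median log2 fold change of -0.86. Slc6a4, the serotonin transporter, had 82.4, 127 and 200 normalized counts in cKO a, b and c and 278, 245 and 392 in control a, b and c (log2 fold change -1.23, standard error 0.28). Tph2, which makes serotonin, had 104 ± 57.0 and 171 ± 27.6 (-0.86), and the transcription factor gene Fev had 55.9 ± 36.6 and 91.4 ± 5.99 (-0.93). In cKO c, Tph2 was at 169 and Fev at 97.4, within the range of the controls, whereas Slc6a4 was at 200, below all controls. Pvalb was at 16.2 in this library, its lowest value. Gata3, the most abundant gene of this list and a gene of GABAergic neurons too, had 2606 ± 92.2 and 2620 ± 307.

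Further lists were written after the values had been seen, because parvalbumin is known from sensory neurons, muscle and cerebellum. Of 8 genes of proprioceptive sensory neurons, 6 were tested and 1 was lower, Prph, an intermediate filament of neurons with long peripheral axons, with 134, 114 and 119 normalized counts in the cKO against 222, 178 and 154 in the control (-0.59, standard error 0.19, list median -0.18). Runx3, a defining gene of these neurons, was at 0 in 4 libraries and at 9.37 in cKO a and 2.16 in cKO c, and Ntrk3, the most abundant, had 4729 ± 306 and 4960 ± 241. Of 10 skeletal muscle genes, 5 were tested and none was called (median 0.00), Myog, Myod1 and Ckm had at most 2.81 normalized counts in any library, and Acta1, the most abundant, had 38.5 ± 5.26 and 39.6 ± 8.50. Of 8 genes of the cerebellar anlage, 7 were tested and 2 were lower (median -0.31), Skor2 of Purkinje cells (-1.41) and Cbln1 (-0.31), and Foxp2, the most abundant, had 8025 ± 949 and 7653 ± 401.

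Skor2 was at 325 normalized counts in control a, 91.3 in control b and 73.4 in control c, and at 45.5 to 58.1 in the cKO, and without control a its log2 fold change was -0.69. Pvalb was nearly as high in control b and control c as in control a, where Skor2 and Atoh1 were highest, and without control a the log2 fold change of Pvalb was -1.55. With control a and cKO c both left out, it was -1.41, that of Gucy2c was -0.78 and that of Cck was -0.30. Cbln1 had 1537, 1551 and 1515 normalized counts in cKO a, b and c and 2149, 1702 and 1848 in control a, b and c, and like Skor2 it was lower in all cKO libraries. The part of cerebellar tissue, of serotonergic neurons and of sensory neurons in the values of Pvalb, Gucy2c and Cck was not tested.

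**Figure D5:**
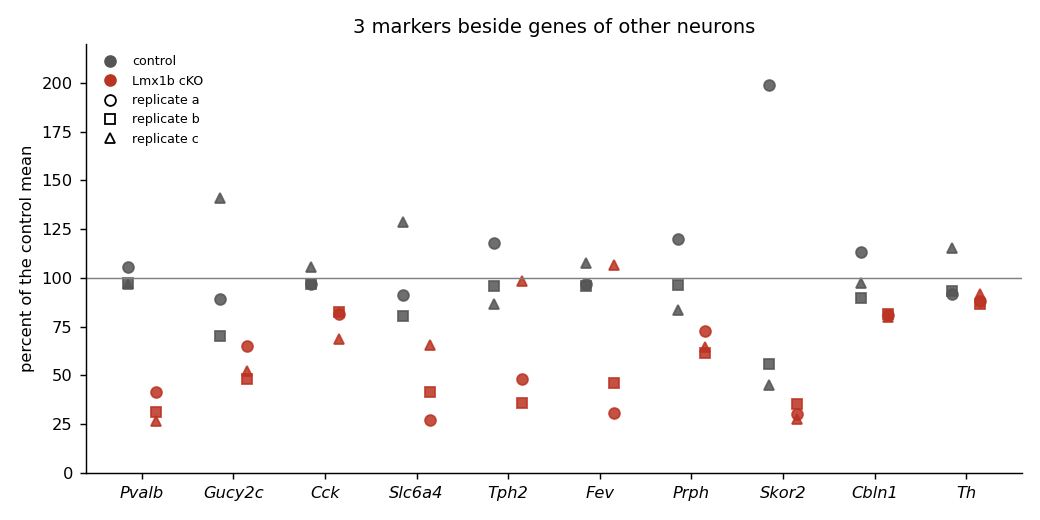
Normalized counts of Pvalb, Gucy2c and Cck beside genes of serotonergic neurons (Slc6a4, Tph2, Fev), sensory neurons (Prph), the cerebellum (Skor2, Cbln1) and mdDA neurons (Th), each library as a percent of the control mean of its gene (grey for control, red for cKO). All red points of Pvalb lie below all its grey points. The red triangles (cKO c) of Tph2 and Fev lie among the grey points, and that of Slc6a4 lies below its grey points. The grey circle of Skor2 (control a) lies apart above the rest.

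Other lists of cell types were counted in the same way. Of 8 radial glia genes, 7 were tested and 3 were lower (median -0.16), Slc1a3 (-0.21), Hes5 (-0.33) and Aldh1l1 (-0.22), and Vim, the most abundant with a value per library, had 10031 ± 1843 and 11056 ± 1570. Of 9 blood genes, 2 were higher, Hba-a1 (0.26) and Hbb-bs (0.30), the latter the most abundant (median 0.30). Of 9 mesenchyme genes, 1 was higher, Col3a1 (1.84), with a median of 1.76, and Col1a1, the most abundant, was at 6097 in cKO c and at 14.8 in cKO b. Slc6a4, Prph, Cbln1 and Aldh1l1 passed with any library left out, Tph2 in 5 of the 6 fits, Fev, Skor2, Col3a1, Hba-a1 and Hbb-bs in 3, and Slc1a3 and Hes5 in 2. With a library left out, the log2 fold change was -0.57 for Tph2 (without cKO b), -0.50 for Fev (cKO a), -1.40 for Fev (cKO c), -0.50 for Hes5 (cKO b) and 1.03 for Col3a1 (cKO c). It was 0.14 for Hba-a1 and 0.15 for Hbb-bs without control a, and 0.16 for Hba-a1 without cKO c. None of the tested genes was called among 9 vascular genes (median 0.03, most abundant Rgs5), 6 genes of oligodendrocyte precursors (-0.09, Olig1), 8 of cycling cells (-0.06, Top2a), 8 of microglia (-0.10), 6 of oculomotor and red nucleus neurons, of which 5 were tested (0.03, Pou4f1), and 7 of GABAergic neurons (-0.03, Gad2). Over the 20 lists without the later additions, 15 of 187 tested genes had a p under 0.05 (8.02%), 11 of them lower and 4 higher, where the share over all tested genes was 2.77%. The lists were chosen with earlier results of these data known, so nothing is read from the higher share.

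The genes whose pattern over the 6 libraries was most like that of each marker were listed as a description, from Pearson's r of log2(normalized count + 1) over 12719 other genes (12720 for Pvalb and Gucy2c) with a mean of at least 100. With 6 libraries such r values are high for some genes of any pattern. For Sox6 the closest gene was Pitx3 with r = 0.993, followed by Mycbp and Prex1, and 32 genes had r over 0.95. For Pvalb the closest were Lsm10, Thop1 and Cd63, with r of 0.973 to 0.992, and for Cck they were Gm5641, Baiap2 and again Cd63, a tetraspanin, with r of 0.967 to 0.978. The closest genes were Hey1, Osgin2 and Tbc1d7 for Gucy2c, Tle3, Psme2 and Sdad1 for Cd9, and Rybp, Zfp777 and Hnrnpll for Slc17a6. For Calb1 they were Mpc2, Slc25a39 and Pde6d, and for Calb2 they were Pde4a, Tspyl4 and Tspan7. None of these lists held Aldh1a1, and Pitx3 was the only mdDA gene among them.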

How the data were processed

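RNA-seq was done on 3 Lmx1b cKO and 3 control libraries. Per the labels' processing notes, the submitters used TopHat 1.0.14, Bowtie2 2.1.0, HTSeq 0.6.1p1 and DESeq 1.10.1 on GRCm38.p4. The values deposited by the authors are mean counts per group after division by a size factor per library (a normalized signal), and columns with the authors' ratio, log2 ratio and p-values were not used. Lines that name no gene held 31.8% of the mean counts and were left out. Whole reads per library were recovered from the means for 26627 genes (99.2%, holding 81.0% of the normalized counts). In a check, 0 of 1000 random values in the cKO and 2 of 1000 in the control gave an answer. The test was limma 3.58.1 (voom, R 4.3.3) with Benjamini-Hochberg adjustment, for genes with a mean of 10 or more. The fit was tested on simulated data. The p-values measure the spread between pooled libraries.

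The 8 markers and the lists were chosen with earlier results of these data known. Named were the markers, list genes with a p under 0.05, the most abundant gene of each list (for microglia not reported here), Aldh1a1, Otx2, Th, Lmx1b and the 3 genes most like each marker. Other genes named (receptors, ligands and relatives of markers, defining genes of other tissues and neighbours of Pvalb) were chosen after their values were seen. Positions are from GENCODE on GRCm38. Exon lengths and overlaps are from the same annotation (merged exons). Alternatives were limma-trend, total reads as scaling, other minimum means, group means plus 1 or 10, and each library left out.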

Additional observations from a re-analysis of the deposited data

How the results depend on the processing

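Of 88 alternative values of the 8 markers, 87 lay within 1 SD between libraries of the reported value. None changed sign for a marker whose groups did not overlap. For such a marker, leaving out a library or adding to both group means cannot change the sign, so nothing is read from this. For Pvalb, adding 10 to both group means gave -1.24 in place of -1.59, which follows from the low level of the gene. The number of genes with a p under 0.05 was 975 in place of 470 with no minimum mean and 0 after adjustment, and from 335 to 646 with each library left out. It was 480 with limma-trend, 479 with total reads as scaling and 345 with a minimum mean of 50. After adjustment, 4 genes passed without control a and 2 without both control a and cKO c, an alternative chosen after seeing the data. The count of list genes with an unadjusted p under 0.05 was 15, from 12 to 21 over the alternatives of fit, scaling, minimum mean and libraries, and 0 after adjustment. Pvalb has no value at a minimum mean of 50. No paired analysis was possible because the recovered libraries carry no replicate number. Depth limits Pvalb and Gucy2c most, with 60 and 179 reads in the cKO, and whole-midbrain RNA does not show in which cells a marker differed.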
